A study of Mus musculus with 12 samples.

Results

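The response of control 4T1 cells to interferon gamma (IFN-gamma) was measured by RNA sequencing. 4T1 cells derive from a mammary tumour of a BALB/c mouse. The control line carried a CRISPR guide RNA against Rosa26, a genomic site commonly edited without known harm. It was compared after 24 hours with IFN-gamma at 20 ng/ml and after vehicle, with 2 libraries in each arm, which makes 4 of the 12 libraries of the series. The other 8 libraries came from 4T1 cells in which Cebpd was targeted by 1 of 2 guides (sgRNA1 or sgRNA2), each with and without the same treatment, and they serve here to estimate the spread and for 1 closing comparison. All cells, controls included, were guide-bearing 4T1 cells. How the guides were delivered, and whether a line was 1 clone or a pool, is not given in the sources used here. Of 16283 genes in the table, 13601 had enough counts to be tested.

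IFN-gamma is a cytokine made mainly by T cells and NK cells. It binds a receptor of IFNGR1 and IFNGR2 chains, which activates the kinases JAK1 and JAK2 and, through them, factors that bind GAS elements in promoters. The factor IRF1, itself induced in this way, binds interferon-stimulated response elements (ISRE) in a later wave. The textbook response holds guanylate-binding proteins, antigen presentation genes, chemokines and antiviral effectors. In carcinoma cells IFN-gamma is also known for slowing growth, and the account below turns mainly to genes outside the textbook set. A list of 176 tested canonical interferon genes was set aside for that purpose, and "off the canonical list" refers to the other 13425.

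Total counts lay between 19244015 and 21485951 in the 4 control libraries. Levels are given as CPM, counts scaled to the library total, as 1 value per library, and a level compares one gene between libraries, not different genes, since CPM is not scaled by transcript length. All 7 epithelial markers examined were present in every control library, at a summed 4210 and 4240 CPM in vehicle and 4410 and 4340 CPM after IFN-gamma. Of the 7, 5 rose and 2 fell, Krt8 (log2 fold change -0.42) and Krt7 (-0.31). The 7 T and NK cell markers and the 5 erythroid markers examined had no entry in the deposited counts. Several markers of blood and vessel cells were near 0: Ptprc, the pan-leukocyte marker, was below 0.4 CPM in every control library, and Itgam, Pecam1 and Cdh5 had no more than 0.257 CPM. Csf1r had at most 0.775 CPM, while the monocyte-associated Cd14 had 9.81 and 10.1 CPM in vehicle and 8.94 and 8.58 CPM after IFN-gamma. Of the markers of other cell types, Pdgfra, a fibroblast marker, rose from 15.1 and 13.8 CPM to 24.3 and 24.6 CPM, and the B cell marker Pax5 and the neutrophil marker S100a8 rose to at most 1.13 CPM. The macrophage-associated Cd68, a lysosomal glycoprotein gene, was the 1 macrophage marker of 3 tested that rose, from 3.77 and 5.08 CPM to 35 and 35.3 CPM (2.99 ± 0.12). The canonical genes took 0.274% and 0.277% of counts in vehicle and 3.19% in both IFN-gamma libraries. Mitochondrially encoded RNAs took 0.67% and 0.62% in vehicle and 1.03% and 1.18% after IFN-gamma, and their part in the results below was not tested.

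The receptor and its signalling path were themselves altered. Ifngr2, the signalling chain of the receptor, rose from 20.3 and 19.3 CPM to 46.9 and 47.4 CPM (log2 fold change 1.25 ± 0.078), and Ifngr1, the ligand-binding chain, rose from 24.1 and 23.5 CPM to 34.2 and 33.6 CPM (0.51 ± 0.064). Jak2 went from 64.9 and 62.9 CPM to 175 and 172 CPM (1.44 ± 0.052) and Jak1 from 94.5 and 99.3 CPM to 168 and 173 CPM (0.82 ± 0.044). Irf1 (chromosome 11, 53770014 to 53778374) stood at 22.6 and 26.6 CPM in vehicle and 776 and 779 CPM after IFN-gamma (4.98 ± 0.060). Cebpd, a bZIP transcription factor gene that the other lines of the series target, had 9.09 and 7.13 CPM in vehicle and 53.5 and 49.1 CPM after IFN-gamma (2.66 ± 0.10). In each of these 6 genes the IFN-gamma libraries lay above both vehicle libraries, and the adjusted p was at most 1.05e-06 (edgeR's quasi-likelihood test, p adjusted by the Benjamini-Hochberg method, which also gives all later adjusted p-values). The promoter of Irf1 carries a GAS match, TTCNNNGAA, in capitals below, and is shown because this gene links the first wave of the response to the second. It is given 5′ to 3′ from RefSeq for GRCm38.p6 at chr11:53769764-53770063, plus strand, from 250 bases before the start of transcription to 50 after it.
Irf1: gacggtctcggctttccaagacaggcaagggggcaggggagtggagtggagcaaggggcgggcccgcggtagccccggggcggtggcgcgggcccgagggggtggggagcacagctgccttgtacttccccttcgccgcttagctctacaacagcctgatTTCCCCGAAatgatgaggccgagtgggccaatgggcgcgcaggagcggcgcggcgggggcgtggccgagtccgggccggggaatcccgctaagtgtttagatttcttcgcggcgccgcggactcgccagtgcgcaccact

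IFN-gamma altered most of the transcriptome. At an adjusted p below 0.05, 9581 genes were called (70.4%), 4947 higher (36.4%) and 4634 lower (34.1%). By at least 2-fold 3146 genes changed (23.1%), 1681 of them higher (12.4%) and 1465 lower (10.8%). A test against a 2-fold change, in place of a test against no change, called 1883 genes (13.8%), 1097 higher (8.07%) and 786 lower (5.78%). The median log2 fold change over all genes tested was 0.011 and its median size was 0.57. In 11465 genes (84.3%) both libraries of one arm lay above both of the other, so separation of the arms alone does not mark a gene here. Of the canonical genes, 169 rose (96.0%), 163 of them by 2-fold or more (92.6%), and their median was 4.41 on the log2 scale (4.21 once the 18 genes at 0 in an arm are set to their bound). Off the canonical list, 1518 genes rose (11.3%) and 1464 fell (10.9%) by 2-fold or more, and 4 canonical genes fell. Labels do not say that the libraries of an arm came from separate cultures, so these p-values measure the spread between libraries, which may be technical.

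**Figure D1:**
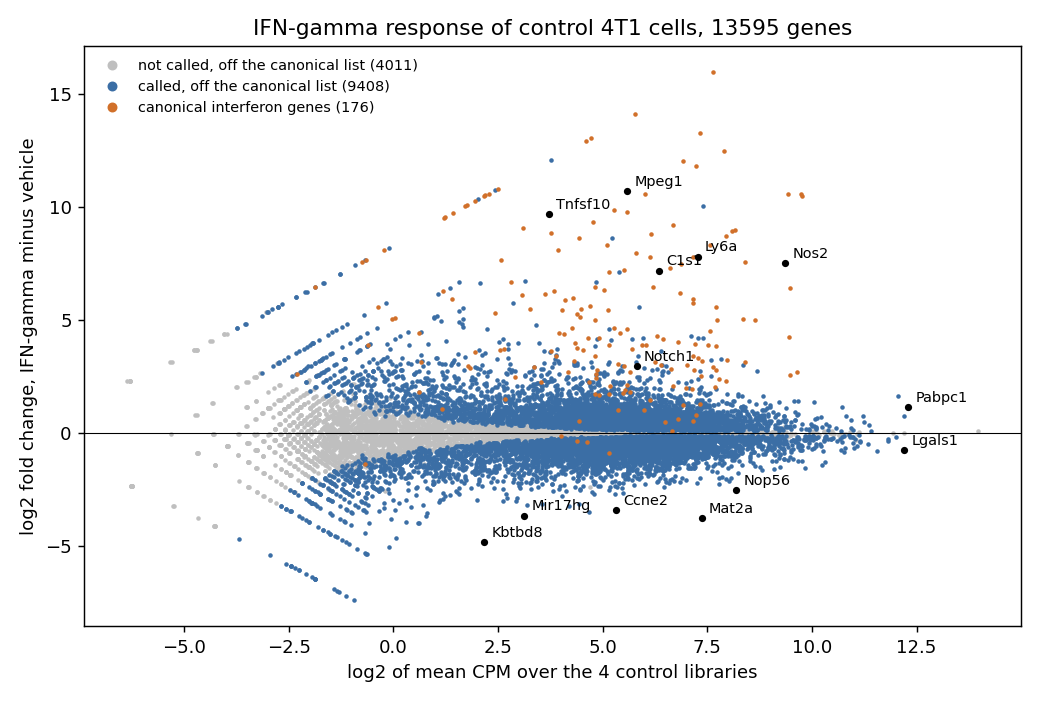
Each point is a gene, with the log2 of its mean CPM over the 4 control libraries on the horizontal axis and its log2 fold change, IFN-gamma minus vehicle, on the vertical axis, for the 13595 genes with a count in a control library. Canonical interferon genes (orange) reach the largest rises, and called genes off that list (blue) spread on both sides of 0, with Mat2a at -3.75 among the lowest of the abundant genes.

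The change ran with transcript length. Across 13530 genes with a known length, Spearman's rank correlation between transcript length and log2 fold change was 0.18, a description across genes, which are not independent replicates. The median log2 fold change rose from -0.23 in the 2706 genes with the shortest transcripts (up to 1619 bases) to 0.28 in the 2706 with the longest (from 4902 bases). GC content gave a rank correlation of 0.109. The gene lists below are therefore given with their transcript length where it is extreme, and with the value after a correction for length and GC content, an alternative chosen after seeing the data, where it moves the median by more than 0.1. Counts in each list are to be read beside the shares of all genes tested. Of these, 36.4% rose and 34.1% fell, 12.4% and 10.8% by 2-fold or more. Several lists also hold canonical genes, which count in their totals and medians. Nos2, Fas, Lcn2, Il18bp, Cfb and Apol6, named below, are canonical.

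The largest rises off the canonical list were led by genes with few or no reads in vehicle. Mpeg1, which encodes the pore-forming protein perforin-2, had 0 and 0.105 CPM in vehicle and 95.2 and 97.7 CPM after IFN-gamma, a ratio of 1853 (95% counting interval 513 to 15310.2). Tnfsf10, the death ligand TRAIL, had 0 and 0.0524 CPM in vehicle and 25.2 and 27.2 CPM after IFN-gamma, a ratio of 1006 (95% counting interval 180.2 to 39790.4). Both arms were thus far apart in these 2 genes, and the 2 IFN-gamma libraries differed little from each other. The complement genes C1s2, at 0 in vehicle and 8.46 and 7.76 CPM with IFN-gamma, which is at least 52-fold higher, and C1s1 (from 0.878 and 1.36 CPM to 161 and 163 CPM, 7.17 ± 0.11) are near-identical copies, so reads may be split between them. C4b, a complement gene with its own close copy C4a, went from 0.258 and 0.105 CPM to 77.1 and 70.9 CPM (8.62 ± 0.21). Ly6a, the stem cell antigen Sca-1, rose from 1.08 and 1.68 CPM to 313 and 303 CPM (7.80 ± 0.10), and its family member Ly6c1 from 0.413 and 0.786 CPM to 86.2 and 79.9 CPM (7.10 ± 0.16), with the same uncertainty. Acod1, the enzyme that makes itaconate, rose from 0.155 and 0.157 CPM to 17.3 and 17.5 CPM (6.74 ± 0.24). AA467197, whose exons hold the miRNA gene Mir147, rose from 0.207 and 0.891 CPM to 57.1 and 57.1 CPM (6.69 ± 0.23). The adjusted p was at most 1.86e-11 for these 9 genes.

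A further 3 names at the head of the ranking overlap canonical genes and cannot be read on their own. Exons of Gm12185 overlap those of Tgtp1 on the same strand, exons of Olfr56 those of Ifi47, and exons of Gm43302 those of Gbp10 and Gbp6. Gm12185 had no count in vehicle and 25.2 and 28.8 CPM with IFN-gamma (at least 173-fold higher), Olfr56 none and 13 and 8.63 CPM (at least 69.2-fold higher), and Gm43302 rose from 0.361 and 0.262 CPM to 339 and 338 CPM (10.05 ± 0.16). Whether these reads came from the named gene or from its canonical neighbour cannot be told apart.

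The largest falls were of a different kind, since several began from high levels. Mat2a (chromosome 6, 72432799 to 72439558), which makes S-adenosylmethionine, the methyl donor of the cell, fell from 308 and 308 CPM to 22.5 and 23.1 CPM (-3.75 ± 0.054, adjusted p = 7.15e-20). Trmt61a, the catalytic subunit of the tRNA m1A methyltransferase, fell from 48.2 and 45.6 CPM to 4.25 and 4.11 CPM (-3.49 ± 0.11). Ccne2, cyclin E2 of the G1 to S transition, fell from 75.2 and 70.9 CPM to 7.88 and 5.86 CPM (-3.40 ± 0.092). These 3 genes were separated from vehicle by more than 8-fold with little scatter between libraries. Kbtbd8, a substrate adaptor of the CUL3 ubiquitin ligase, fell from 9.5 and 7.86 CPM to 0.193 and 0.411 CPM (-4.83 ± 0.30), Nradd from 3.3 and 2.46 CPM to 0.0483 and 0.308 CPM (-3.997 ± 0.53), Mcpt8, a mast cell protease gene, from 3.77 and 1.89 CPM to 0.145 and 0.206 CPM (-3.97 ± 0.58), Hpdl from 3.92 and 2.46 CPM to 0.338 and 0.206 CPM (-3.52 ± 0.46) and Odad1 from 2.01 and 1.78 CPM to 0.29 and 0.0514 CPM (-3.40 ± 0.52). The unnamed transcript Gm47175 fell by 3.65 on the log2 scale to 0.242 and 0.257 CPM. Zfp335os and B230377A18Rik lie opposite other genes, and without strand their reads cannot be told from those of the partner. Zfp335os went from 1.7 and 2.31 CPM to 0.145 and 0 CPM, vehicle over IFN-gamma at a ratio of 26.8 (95% counting interval 8.83 to 133), and B230377A18Rik from 2.84 and 1.83 CPM to 0.29 and 0 CPM (-3.92 ± 0.80). The adjusted p was at most 0.000267 for all of these.

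Mir17hg (chromosome 14, 115042879 to 115046727), which hosts the miR-17-92 cluster, fell from 16 and 16.2 CPM to 1.35 and 1.18 CPM (-3.66 ± 0.17, adjusted p = 1.45e-12). miR-17-92 miRNAs are known for restraining cell cycle inhibitors and apoptosis genes. The libraries measured the host RNA, not the mature miRNAs. The mature guide strands processed from it are shown with the seed, bases 2 to 8, in capitals, because they fall into 4 seed groups: miR-17-5p and miR-20a-5p share one, miR-19a-3p and miR-19b-3p another, and miR-18a-5p and miR-92a-3p have their own. Sequences are from RefSeq for GRCm38.p6.
mmu-miR-17-5p: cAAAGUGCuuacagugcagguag
mmu-miR-20a-5p: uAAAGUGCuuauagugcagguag
mmu-miR-18a-5p: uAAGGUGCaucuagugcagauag
mmu-miR-19a-3p: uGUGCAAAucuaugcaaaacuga
mmu-miR-19b-3p: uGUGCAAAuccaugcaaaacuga
mmu-miR-92a-3p: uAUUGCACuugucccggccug

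The largest rises in CPM, mitochondrially encoded genes left out, included translation factors and interferon GTPases. Pabpc1, the cytoplasmic poly(A)-binding protein, rose from 3121 and 3162 CPM to 6821 and 7026 CPM (1.14 ± 0.039) and Eef2, the translocation factor of elongation, from 3478 and 3562 CPM to 5979 and 5817 CPM (0.74 ± 0.037). Gbp2 (1741 and 1730.0 CPM after IFN-gamma), Gbp2b (1688 and 1719.8 CPM) and Gbp4 (1353 and 1395 CPM), guanylate-binding protein genes with similar sequences, were among the next. The falls were led by Lgals1, galectin-1, from 5759 and 6084 CPM to 3554 and 3466 CPM (-0.75 ± 0.063), and Ppia, cyclophilin A, from 3824 and 3777 CPM to 2172 and 2163 CPM (-0.81 ± 0.046). Ran, the GTPase of nuclear transport, fell from 1817 and 1699.9 CPM to 664 and 659 CPM (-1.41 ± 0.045), Eif5a, the hypusinated translation factor, from 1823 and 1782 CPM to 761 and 730.2 CPM (-1.27 ± 0.038), Ldha, lactate dehydrogenase, from 2235 and 2206 CPM to 1249.7 and 1219 CPM (-0.85 ± 0.040) and S100a6, a calcium-binding protein, from 2492 and 2555 CPM to 1617 and 1561 CPM (-0.67 ± 0.053). The arms did not overlap in any of these 11 genes, and the adjusted p was at most 3.98e-09. Pabpc1, Ran, Eif5a and the interferon genes also passed the test against a 2-fold change.

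**Figure D2:**
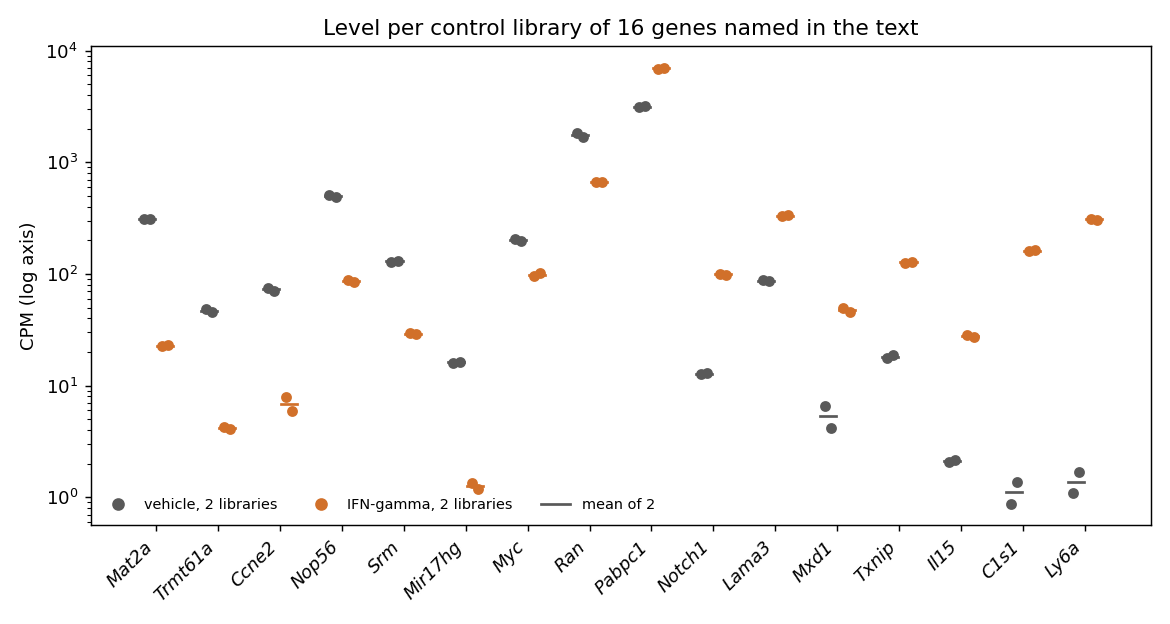
CPM on a log axis in each of the 4 control libraries, for 16 genes named in the text, with vehicle libraries in grey, IFN-gamma libraries in orange and a bar at the mean of 2. In all 16 genes the 2 arms are apart, by 13.5-fold in Mat2a (308 and 308 CPM against 22.5 and 23.1 CPM).

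Ribosome production was the list that stood lowest. Of 41 tested genes of RNA polymerase I and the nucleolus, where ribosomal RNA is made and processed, 38 fell and 1 rose, 27 of the falls by 2-fold or more. The median log2 fold change was -1.55, beside 0.011 over all genes tested, and -1.48 after correction for length and GC content. Nop56, a core protein of box C/D snoRNPs (chromosome 2, 130274430 to 130279313), stood at 505 and 490.4 CPM in vehicle and 88.3 and 84.2 CPM after IFN-gamma (-2.53 ± 0.046). Rrp12, a ribosome export factor, fell from 59.1 and 61.8 CPM to 10.4 and 10.7 CPM (-2.52 ± 0.075), and Dkc1, the pseudouridine synthase dyskerin, from 169.98 and 169 CPM to 38.2 and 39.9 CPM (-2.12 ± 0.048). The vehicle and IFN-gamma libraries were far apart in all 3, with adjusted p of at most 2.36e-15. Taf1b, a subunit of the polymerase I initiation factor, was the 1 gene that rose (from 22.8 and 24.2 CPM to 27.4 and 26 CPM, 0.18 ± 0.078, adjusted p = 0.0422), and that call was lost under several other settings. Polr1c, a subunit shared with polymerase III, had 95.1 and 94.3 CPM in vehicle and 93.1 and 84.1 CPM after IFN-gamma (-0.096 ± 0.062, adjusted p = 0.177), and Polr1h 13.7 and 16 CPM in vehicle and 16 and 15.7 CPM after IFN-gamma (0.097 ± 0.11, adjusted p = 0.449). Nop56 exons hold snoRNA genes and overlap Idh3b on the other strand.

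Enzymes that modify tRNA moved the same way. Of 46 tested, 35 fell, 22 of them by 2-fold or more, and 5 rose, with a median of -0.85. Besides Trmt61a, Wdr4, the scaffold of the m7G methyltransferase, fell from 70.1 and 66.7 CPM to 10.6 and 10.5 CPM (-2.69 ± 0.068), and Qtrt2, a subunit of the queuine transferase, from 47.2 and 45.8 CPM to 9.96 and 10.7 CPM (-2.17 ± 0.079). Partners in the same enzymes, picked after their values were seen, fell less: Trmt6, the partner of Trmt61a, by 1.90 on the log2 scale, Mettl1, the catalytic partner of Wdr4, by 1.54, and Qtrt1, the partner of Qtrt2, by 1.15. Nsun6, a tRNA cytosine methyltransferase, rose from 7.8 and 7.34 CPM to 13.3 and 15.3 CPM (0.91 ± 0.12), as did Cdkal1 (0.65 ± 0.12) and Trmt2b (0.46 ± 0.091). Trmt1 (84.7 and 88 CPM in vehicle and 84.7 and 81.5 CPM after IFN-gamma, adjusted p = 0.35) and Tyw1 (33.8 and 32.5 CPM in vehicle and 35.5 and 33.8 CPM after IFN-gamma, adjusted p = 0.431) were not called. The cytosolic aminoacyl-tRNA synthetases, which charge tRNA, did not share this pattern: 12 of 22 fell and 7 rose, with a median of -0.16 and 2 falls of 2-fold or more. Those 2, Aimp2 (from 105 and 108 CPM to 28.5 and 28.3 CPM, -1.90 ± 0.060) and Eef1e1 (from 78.5 and 70.7 CPM to 28.6 and 30.9 CPM, -1.33 ± 0.071), encode scaffold proteins of the multisynthetase complex and not synthetases. Mars1 fell (-0.72 ± 0.046), Qars rose from 178 and 182 CPM to 301 and 289.97 CPM (0.71 ± 0.043), and Kars (0.45 ± 0.041) and Vars (0.33 ± 0.044) rose less, and the call of Vars was lost after correction for length and GC content (0.052, adjusted p = 0.176). Aars had 347 and 354 CPM in vehicle and 341 and 341 CPM after IFN-gamma and Eprs 284 and 269 CPM in vehicle and 298 and 293 CPM after IFN-gamma, and neither was called.

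Several lowered genes hold an E-box, CACGTG, the element known to bind MYC and MAX, in the window of 250 bases before to 50 after the start. Shown are 3 examples picked for their match, with the E-box in capitals, from tRNA modification, nuclear transport and the p53 targets. They lie at chr12:111677855-111678154 (Trmt61a, plus strand), chr5:129019906-129020205 (Ran, plus strand) and chr7:78895808-78896107 (Aen, plus strand), from RefSeq for GRCm38.p6. Aen, which encodes a nucleolar exonuclease that is a p53 target, fell from 47.9 and 48 CPM to 7.59 and 7.4 CPM (-2.68 ± 0.089). The 3 do not stand for whole groups of genes. An E-box was found in 15.6% of RNA polymerase I and nucleolar promoters and 19.1% of tRNA modification promoters, beside 9.83% of promoters of tested genes. Whether MYC acts through these matches was not tested.
Trmt61a: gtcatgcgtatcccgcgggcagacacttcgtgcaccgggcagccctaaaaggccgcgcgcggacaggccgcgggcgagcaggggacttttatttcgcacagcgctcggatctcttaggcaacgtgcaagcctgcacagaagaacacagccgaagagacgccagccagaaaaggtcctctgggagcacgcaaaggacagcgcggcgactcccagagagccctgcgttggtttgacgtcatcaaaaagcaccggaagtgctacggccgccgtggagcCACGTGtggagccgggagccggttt
Ran: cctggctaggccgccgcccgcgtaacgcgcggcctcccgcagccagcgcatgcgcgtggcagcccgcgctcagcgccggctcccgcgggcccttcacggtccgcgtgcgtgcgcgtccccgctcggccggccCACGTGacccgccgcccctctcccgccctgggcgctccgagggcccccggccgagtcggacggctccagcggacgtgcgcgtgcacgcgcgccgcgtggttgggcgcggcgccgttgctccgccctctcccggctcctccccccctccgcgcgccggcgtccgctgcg
Aen: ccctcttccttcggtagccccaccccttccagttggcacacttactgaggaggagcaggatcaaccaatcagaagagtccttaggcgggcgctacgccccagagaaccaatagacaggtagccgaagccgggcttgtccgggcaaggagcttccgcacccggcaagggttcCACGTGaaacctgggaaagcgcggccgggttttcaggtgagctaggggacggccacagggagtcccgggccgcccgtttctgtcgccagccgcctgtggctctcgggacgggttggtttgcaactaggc

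MYC, a driver of ribosome production and growth, fell, and 4 of 5 antagonists rose. Myc had 205 and 197 CPM in vehicle and 96.1 and 101 CPM after IFN-gamma (-1.03 ± 0.045, adjusted p = 5.47e-13), which is near 2-fold, and its partner Max fell from 70.3 and 72 CPM to 50.4 and 47 CPM (-0.55 ± 0.055). Mxd1, which competes with MYC for MAX, rose from 6.51 and 4.19 CPM to 49 and 45.3 CPM (3.14 ± 0.13, adjusted p = 3.59e-13). A further 3 antagonists, picked after their values were seen, rose as well: Mxd4 from 7.38 and 6.55 CPM to 18.7 and 18 CPM (1.39 ± 0.11), Mnt from 25.9 and 28.5 CPM to 61.3 and 56.1 CPM (1.11 ± 0.075) and Mxi1 from 60.8 and 60.1 CPM to 111 and 110.3 CPM (0.87 ± 0.049). The fifth, Mxd3, had 22.9 and 19.4 CPM in vehicle and 19.6 and 17.9 CPM after IFN-gamma and was not called (adjusted p = 0.15, and 0.0476 without vehicle replicate 2). Myc, Max and these antagonists except Mxd3 belong to a list of transcription factors outside the IRF and STAT families, of which 43 of 56 tested members rose and 6 fell (median 0.84), 25 and 1 of them by 2-fold or more. Prdm1, the repressor BLIMP-1, rose from 0.31 and 0.314 CPM to 1.55 and 2 CPM (2.48 ± 0.59, adjusted p = 0.00103). Atf4, the factor of the amino acid response, fell from 227 and 234 CPM to 163 and 157 CPM (-0.53 ± 0.044). Cebpg (82.8 and 78.1 CPM in vehicle and 79.7 and 80.9 CPM after IFN-gamma, adjusted p = 0.972) and Maff (40.2 and 39.3 CPM in vehicle and 46.1 and 41 CPM after IFN-gamma, adjusted p = 0.187) were not called.

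Of 24 tested genes of the methionine cycle and one-carbon metabolism, 17 fell and 3 rose, with a median of -0.57, or -0.43 after correction for length and GC content. Mat2a was the lowest by far. Shmt1, the cytosolic serine hydroxymethyltransferase, fell from 79.9 and 78.7 CPM to 30.02 and 31.8 CPM (-1.36 ± 0.055), and Enoph1 of the methionine salvage path from 56.9 and 62.2 CPM to 23.4 and 23.5 CPM (-1.34 ± 0.068). Mat2b, the regulatory partner of Mat2a, went the other way, from 71.2 and 65.9 CPM to 86.4 and 87.4 CPM (0.34 ± 0.052), as did Ahcyl1 (0.59 ± 0.041) and Ahcyl2 (0.87 ± 0.071). The methionine synthase gene Mtr had 18.2 and 15.5 CPM in vehicle and 17.4 and 16.6 CPM after IFN-gamma and was not called (adjusted p = 0.905). Of 31 nucleotide synthesis and salvage genes 23 fell and 5 rose, with a median of -0.69, or -0.49 after the same correction. Ribonucleotide reductase Rrm2 fell from 297 and 297 CPM to 94.3 and 94 CPM (-1.66 ± 0.045), Ppat, the committed step of purine synthesis, from 108 and 104 CPM to 35.3 and 34.6 CPM (-1.60 ± 0.062), and Umps of pyrimidine synthesis from 142 and 142 CPM to 53.9 and 49.1 CPM (-1.46 ± 0.054). The 3 that rose by 2-fold or more include 2 canonical genes, Cmpk2 (from 0.258 and 0.262 CPM to 10.2 and 10.9 CPM, 5.31 ± 0.29) and the dNTPase Samhd1 (from 83.1 and 82 CPM to 411 and 402 CPM, 2.30 ± 0.044). The other was Upp1, uridine phosphorylase (from 27 and 23.3 CPM to 160.04 and 167 CPM, 2.70 ± 0.064). Paics, at 609 and 574 CPM in vehicle and 561 and 562 CPM after IFN-gamma, was not called (adjusted p = 0.12), nor was Cmpk1 (102 and 106 CPM in vehicle and 102 and 103 CPM after IFN-gamma, adjusted p = 0.797).

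Of 19 tested genes of polyamine and arginine metabolism 7 fell and 6 rose (median 0.023), shares near those of all genes tested. The 3 largest falls were of polyamine synthesis enzymes, spermidine synthase Srm (from 127 and 131 CPM to 29.5 and 28.8 CPM, -2.15 ± 0.052), Amd1, which supplies its aminopropyl donor (from 221 and 212 CPM to 75 and 73 CPM, -1.55 ± 0.051), and the rate-limiting Odc1 (from 1156 and 1124 CPM to 482 and 485 CPM, -1.24 ± 0.041). The largest rises were Nos2, inducible nitric oxide synthase (from 6.87 and 7.44 CPM to 1304 and 1314 CPM, 7.51 ± 0.065), the spermine oxidase Smox (from 73.7 and 76 CPM to 195 and 179 CPM, 1.32 ± 0.055) and the polyamine exporter of lysosomes Atp13a2 (from 16 and 15.6 CPM to 37.5 and 34.3 CPM, 1.19 ± 0.091). Each had an adjusted p of at most 1.33e-09. Oaz2 (84.1 and 84.5 CPM in vehicle and 79.2 and 84.4 CPM after IFN-gamma, adjusted p = 0.465) and Asl (50.1 and 52.2 CPM in vehicle and 52.3 and 51.6 CPM after IFN-gamma, adjusted p = 0.752) were not called. Of 18 amino acid transporters, 8 fell and 5 rose (median -0.24, or -0.37 after correction for length and GC content). Slc7a6 fell from 137 and 118 CPM to 41.5 and 42.4 CPM (-1.61 ± 0.071), the glutamine carrier Slc1a5 from 101 and 93.3 CPM to 33.9 and 32.6 CPM (-1.55 ± 0.073) and the taurine carrier Slc6a6 from 167 and 179 CPM to 77.7 and 77.8 CPM (-1.16 ± 0.052). The peptide and histidine transporter Slc15a3 rose from 0.878 and 0.314 CPM to 3 and 2.72 CPM (2.25 ± 0.32), with Slc43a2 (2.07 ± 0.16) and the glycine carrier Slc6a9 (1.53 ± 0.095).

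Mitochondrial translation genes were lower on a broad front. Of 80 tested genes of the mitochondrial ribosome 70 fell, 17 by 2-fold or more, and 2 rose. The median was -0.71, or -0.55 after correction for length and GC content, with which 5 rose, and the list's median transcript length of 1302 bases lies among those of the shortest class above, whose own median was -0.23. Mrpl20 fell from 86 and 93 CPM to 24.2 and 21.4 CPM (-1.97 ± 0.085), Mrpl16 from 54.9 and 56.3 CPM to 18.8 and 18.9 CPM (-1.56 ± 0.070) and Mrpl36 from 27.3 and 29.7 CPM to 10.7 and 9.4 CPM (-1.50 ± 0.12). Mrpl14 (from 71.8 and 68.8 CPM to 103 and 91 CPM, 0.47 ± 0.071) and Mrps34 (from 69.4 and 67.2 CPM to 89.5 and 88.9 CPM, 0.38 ± 0.080) were the 2 that rose. Citric acid cycle genes showed no such shift, with 14 of 30 falling, 10 rising and a median of -0.030, or 0.074 after the same correction. Me2, a mitochondrial malic enzyme, fell from 90.1 and 95.4 CPM to 45.6 and 48.3 CPM (-0.98 ± 0.062), Suclg1 from 109 and 104 CPM to 55.9 and 60.2 CPM (-0.88 ± 0.051) and Idh3a from 259.7 and 259.8 CPM to 149 and 149.6 CPM (-0.80 ± 0.041), while Pck2 rose from 49.1 and 44.5 CPM to 112 and 109 CPM (1.24 ± 0.065) and Got1 from 82.4 and 85.1 CPM to 131 and 132 CPM (0.65 ± 0.047). Glud1 had 305 and 301 CPM in vehicle and 304 and 304 CPM after IFN-gamma (adjusted p = 0.913). Of 35 heat shock and ER chaperone genes 17 fell and 13 rose (median -0.018). Hspe1, the mitochondrial chaperonin partner, fell from 525 and 568 CPM to 224 and 218 CPM (-1.31 ± 0.078), Dnaja1 from 209.7 and 209.8 CPM to 94.4 and 91.3 CPM (-1.18 ± 0.045) and Hspa4 from 482 and 480.1 CPM to 261 and 266 CPM (-0.87 ± 0.039). Ddit3, the stress factor CHOP, which overlaps Mars1 on the other strand, rose from 9.14 and 10.3 CPM to 50.8 and 50.2 CPM (2.38 ± 0.078), and Ern1, the unfolded protein sensor IRE1, from 57 and 56.8 CPM to 114 and 113 CPM (0.995 ± 0.059). The very abundant Hsp90ab1 had 4709.9 and 4823 CPM in vehicle and 4741 and 4673 CPM after IFN-gamma and was not called (adjusted p = 0.649).

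**Figure D3:**
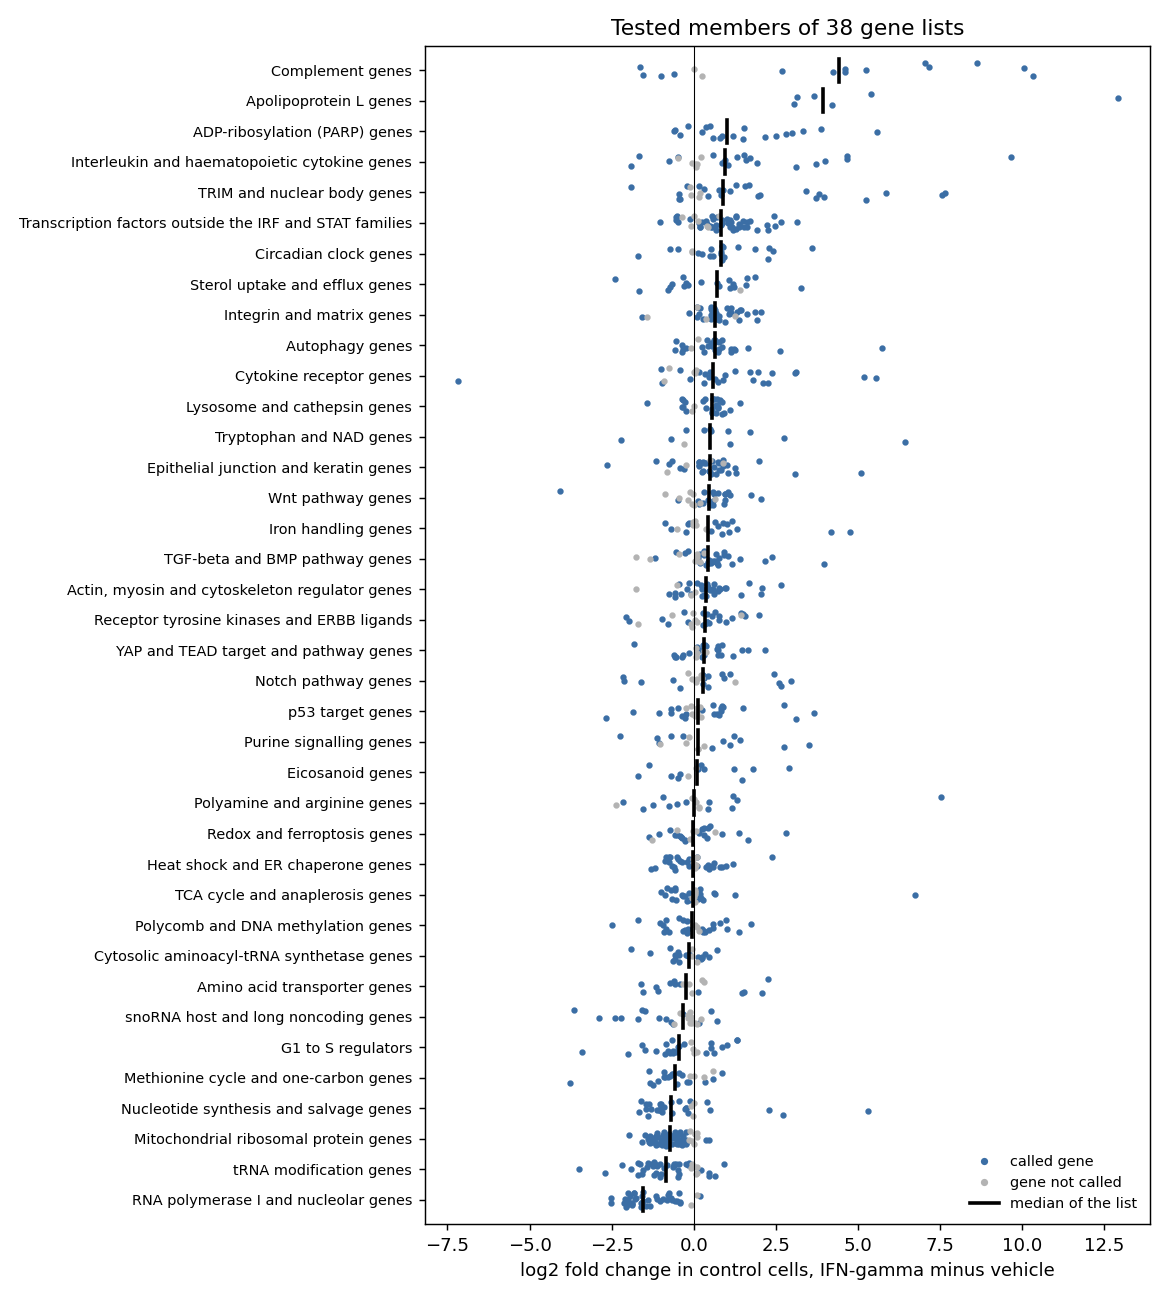
Each row is a gene list, each point a tested member with its log2 fold change, IFN-gamma minus vehicle, in control cells (blue if called, grey if not), and the black bar is the list's median. Rows run from RNA polymerase I and nucleolar genes at -1.55 to complement genes at 4.43, and most lists hold called genes on both sides of 0.

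Cell cycle entry genes fell more often than they rose. Of 28 regulators of the G1 to S transition 16 fell and 8 rose (median -0.46, or -0.55 after correction for length and GC content). Of all genes tested, 34.1% fell and 36.4% rose. By 2-fold or more 5 of the 28 fell and 3 rose, beside 10.8% and 12.4% of all genes tested. Besides Ccne2, its paralog Ccne1 fell from 19.3 and 17.3 CPM to 4.25 and 4.88 CPM (-2.003 ± 0.13) and Skp2, the ubiquitin ligase subunit that removes p27, from 147 and 143 CPM to 48 and 48.9 CPM (-1.58 ± 0.050). The 3 largest rises were all brakes: the CDK4/6 inhibitor Cdkn2d (from 38 and 38.8 CPM to 95.2 and 97.4 CPM, 1.33 ± 0.051), the retinoblastoma gene Rb1 (from 10.3 and 9.22 CPM to 22.8 and 25.7 CPM, 1.31 ± 0.12) and its relative Rbl2 (from 30.00 and 29.6 CPM to 58.3 and 62.2 CPM, 1.02 ± 0.064). Ccna2, of S phase and mitosis, was at 336 and 313 CPM in vehicle and 348 and 347 CPM after IFN-gamma and not called (adjusted p = 0.0649), as was Ccnd3 (78.6 and 83.6 CPM in vehicle and 79.6 and 82.8 CPM after IFN-gamma, adjusted p = 0.981). Targets of p53 showed no common direction, with 13 of 30 rising, 9 falling and a median of 0.14. The death receptor gene Fas rose from 2.94 and 3.88 CPM to 41.8 and 43.9 CPM (3.65 ± 0.12), Trp53inp1 from 2.63 and 3.3 CPM to 24.1 and 27 CPM (3.10 ± 0.14) and the growth arrest gene Gadd45a from 10.7 and 12.2 CPM to 80.9 and 72.4 CPM (2.74 ± 0.088). Aen was the lowest, Tigar fell from 21.2 and 17.6 CPM to 5.66 and 4.98 CPM (-1.86 ± 0.13), and Rps27l from 236 and 236 CPM to 118 and 109.5 CPM (-1.05 ± 0.076). Mdm2, a core p53 target, had 83.4 and 82.4 CPM in vehicle and 79 and 76.4 CPM after IFN-gamma (adjusted p = 0.18).

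Polycomb and DNA methylation genes divided as well, 15 of 30 falling and 12 rising (median -0.063). Bend3, a heterochromatin repressor, fell from 35.3 and 38.9 CPM to 5.75 and 7.4 CPM (-2.50 ± 0.13), the de novo methyltransferase Dnmt3b from 6.04 and 5.24 CPM to 1.5 and 1.95 CPM (-1.71 ± 0.30) and the PRC1 subunit Bmi1 from 116 and 108 CPM to 56.1 and 53.5 CPM (-1.03 ± 0.058). Ezh1, the histone methyltransferase associated with non-dividing cells, rose from 18.9 and 17.3 CPM to 59.2 and 62.2 CPM (1.74 ± 0.065), as did Kdm5b (1.02 ± 0.052). Of 27 snoRNA host and long noncoding genes, 12 fell and 3 rose (median -0.33, or -0.18 after correction for length and GC content). After Mir17hg the lowest were Dancr (from 11.5 and 11.5 CPM to 2.18 and 0.925 CPM, -2.87 ± 0.24) and Snhg3 (from 31.3 and 37 CPM to 6.14 and 6.78 CPM, -2.40 ± 0.12). Neat1 (487 and 510.4 CPM in vehicle and 488 and 444 CPM after IFN-gamma, adjusted p = 0.185) and Malat1 (370.3 and 375 CPM in vehicle and 348 and 365 CPM after IFN-gamma, adjusted p = 0.501) were not called.

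Of the lists that stood high, several encode modifiers of protein. Of 20 ADP-ribosylation genes 16 rose and 4 fell, with 10 rises and no fall of 2-fold or more and a median of 1.02. Of the 20 genes, 4 are also on the canonical list. Parp14 rose from 7.9 and 8.96 CPM to 412 and 402 CPM (5.59 ± 0.077), and the partners Dtx3l (from 25.2 and 28.1 CPM to 384 and 392 CPM, 3.86 ± 0.067) and Parp9 (from 27.4 and 29.3 CPM to 282 and 285 CPM, 3.32 ± 0.062) rose together. Those 2 genes overlap on opposite strands, and their reads there cannot be told apart. The DNA repair members moved the other way, Parp1 from 184 and 196 CPM to 131 and 127 CPM (-0.56 ± 0.052), Parp2 from 43.6 and 41.1 CPM to 30.9 and 32.9 CPM (-0.41 ± 0.079) and Adprs from 25.7 and 23.1 CPM to 15.5 and 16.9 CPM (-0.59 ± 0.093). Of 29 genes of TRIM ligases and nuclear bodies 20 rose and 5 fell (median 0.89). Of the 29, 8 are also on the canonical list, among them Sp110, Sp140 and Trim30a, named next. Sp110 had 0 and 0.105 CPM in vehicle and 12.3 and 11.4 CPM after IFN-gamma, a ratio of 227 (95% counting interval 62.6 to 1883), its relative Sp140 rose from 0.465 and 0.681 CPM to 35.4 and 31.8 CPM (5.86 ± 0.16), and Trim30a, one of several close copies, from 1.08 and 1.05 CPM to 42.1 and 39.1 CPM (5.24 ± 0.15). Trim65 fell from 8.88 and 11.1 CPM to 2.37 and 2.98 CPM (-1.90 ± 0.19). Trim35 (121 and 123 CPM in vehicle and 114 and 118 CPM after IFN-gamma, adjusted p = 0.207) and Trim37 (94.7 and 89.6 CPM in vehicle and 89.1 and 80.6 CPM after IFN-gamma, adjusted p = 0.111) were not called.

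All 6 tested apolipoprotein L genes, lipid-binding proteins of innate immunity, rose by 2-fold or more (median 3.93, or 4.04 after correction for length and GC content). Apol6 had no count in vehicle and 47.7 and 49.2 CPM with IFN-gamma, which is at least 310.2-fold higher, Apol10b rose from 0.155 and 0.105 CPM to 5.85 and 5.7 CPM (5.41 ± 0.39), and Apol9a, a near copy of Apol9b, from 7.02 and 5.87 CPM to 122 and 115 CPM (4.20 ± 0.077). In tryptophan and NAD metabolism 8 of 12 rose and 3 fell (median 0.51), and 1 fell by DESeq2 or without vehicle replicate 1. Ido2, a tryptophan-degrading dioxygenase, had 0 and 0.105 CPM in vehicle and 4.88 and 5.19 CPM after IFN-gamma, a ratio of 96.7 (95% counting interval 26.4 to 804). The NAD-consuming ectoenzymes Bst1 (from 1.81 and 2.04 CPM to 13 and 13.3 CPM, 2.76 ± 0.15) and Cd38 (from 0.413 and 1.1 CPM to 2.08 and 2.93 CPM, 1.72 ± 0.38, adjusted p = 0.000565) rose, while Nadk, which makes NADP, fell from 245 and 242 CPM to 155 and 145 CPM (-0.70 ± 0.050). Apol9a carries 2 matches in its promoter to the core of the ISRE, GAAA, any 2 bases, GAAA, on either strand. They are in capitals in the RefSeq window at chr15:77410985-77411284, minus strand. Notch3, described below, is shown beside it for its GAS match, at chr17:32166841-32167140, minus strand, as a raised gene from outside immunity.
Apol9a: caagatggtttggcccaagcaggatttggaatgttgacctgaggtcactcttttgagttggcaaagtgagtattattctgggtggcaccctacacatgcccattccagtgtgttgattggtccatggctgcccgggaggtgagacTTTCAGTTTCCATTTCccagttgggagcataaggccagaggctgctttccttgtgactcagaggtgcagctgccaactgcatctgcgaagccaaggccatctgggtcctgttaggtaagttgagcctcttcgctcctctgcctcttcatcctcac
Notch3: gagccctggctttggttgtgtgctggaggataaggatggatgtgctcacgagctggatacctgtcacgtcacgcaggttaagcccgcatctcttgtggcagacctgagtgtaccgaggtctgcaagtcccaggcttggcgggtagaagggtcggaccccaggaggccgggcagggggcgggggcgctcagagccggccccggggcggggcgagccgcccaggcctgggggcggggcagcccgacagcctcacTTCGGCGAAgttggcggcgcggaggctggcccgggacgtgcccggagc

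Of 22 iron handling genes 11 rose and 5 fell (median 0.45), 6 and 0 of them by 2-fold or more. The metalloreductase Steap4 rose from 0.775 and 0.734 CPM to 20.01 and 21.2 CPM (4.76 ± 0.18), the siderophore-binding Lcn2 from 9.6 and 8.7 CPM to 162 and 169 CPM (4.17 ± 0.068) and the ferroxidase Cp from 40.02 and 37.1 CPM to 97.3 and 93.6 CPM (1.31 ± 0.051). The transferrin receptor gene Tfrc fell from 960.1 and 879 CPM to 570.5 and 570.1 CPM (-0.69 ± 0.047), and so did the importer Slc39a14 (from 106 and 109 CPM to 58.6 and 58.8 CPM, -0.88 ± 0.054) and Ireb2 (-0.24 ± 0.054). Ferritin heavy chain Fth1 (2222 and 2161 CPM in vehicle and 2157 and 2130.0 CPM after IFN-gamma, adjusted p = 0.449) and the ferritinophagy receptor Ncoa4 (77.8 and 79.5 CPM in vehicle and 74.1 and 81 CPM after IFN-gamma, adjusted p = 0.753) were not called. Of 21 sterol uptake and efflux genes 11 rose and 9 fell (median 0.72, or 0.56 after correction for length and GC content). The efflux pump Abcg1 rose from 1.19 and 0.891 CPM to 10.8 and 9.46 CPM (3.28 ± 0.20), Lrp1, an endocytic receptor, from 146 and 149 CPM to 461 and 456 CPM (1.64 ± 0.047) and the oxysterol hydroxylase Cyp7b1 from 0.568 and 0.472 CPM to 1.89 and 1.9 CPM (1.85 ± 0.36). Apoe fell from 2.84 and 3.04 CPM to 0.628 and 0.462 CPM (-2.41 ± 0.33), and Scap and the receptor Lrp8 fell by 0.80 and 0.73 on the log2 scale.

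Lysosome and autophagy genes rose more often than they fell, mostly by less than 2-fold. Of 30 lysosome and cathepsin genes 21 rose and 7 fell, beside 36.4% and 34.1% of all genes tested. Only 2 rose and 1 fell by 2-fold or more, smaller shares than the 12.4% and 10.8% of all genes tested. The median was 0.57, and 4 fell after correction for length and GC content. The acid lipase Lipa rose from 14.3 and 12.4 CPM to 34.2 and 36.7 CPM (1.41 ± 0.089), the cathepsin Ctso from 4.91 and 4.98 CPM to 10.8 and 10.5 CPM (1.11 ± 0.14) and the proton pump subunit Atp6v0d1 from 38.2 and 37.1 CPM to 73.8 and 69.9 CPM (0.93 ± 0.062). Gusb, beta-glucuronidase, fell from 136 and 146 CPM to 51.7 and 52.7 CPM (-1.44 ± 0.056) and the abundant cathepsin Ctsl from 1397 and 1404 CPM to 1077 and 1088 CPM (-0.37 ± 0.037). Cst3 had 200.2 and 202 CPM in vehicle and 208 and 195 CPM after IFN-gamma (adjusted p = 0.978) and Ctsc 28 and 28.8 CPM in vehicle and 27.4 and 28 CPM after IFN-gamma (adjusted p = 0.675). Of 31 autophagy genes 23 rose and 6 fell (median 0.65), 7 and 0 of them by 2-fold or more. The largest rise was Irgm1, an interferon GTPase that is also canonical (from 4.65 and 5.92 CPM to 280.01 and 282 CPM, 5.73 ± 0.084), followed by the cargo receptors Calcoco1 (from 7.59 and 10.4 CPM to 52 and 58 CPM, 2.61 ± 0.11) and Optn (from 13.8 and 16 CPM to 48.1 and 44.7 CPM, 1.64 ± 0.080). The conjugation genes Atg16l1 (from 49.98 and 44.4 CPM to 31.6 and 31.8 CPM, -0.58 ± 0.076), Atg5 (-0.54 ± 0.068) and Gabarapl2 (-0.35 ± 0.052) fell, the last with its call lost after correction for length and GC content (-0.091, adjusted p = 0.0866).

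Receptors and ligands of developmental pathways changed in both directions. In the Notch pathway 12 of 24 genes rose and 5 fell (median 0.28, or 0.063 after correction for length and GC content). The receptors Notch1 (from 12.6 and 12.8 CPM to 101 and 98.3 CPM, 2.97 ± 0.069) and Notch3 (from 1.39 and 2.15 CPM to 11.2 and 11.2 CPM, 2.66 ± 0.22) rose, as did the adaptor Numbl (from 3.98 and 4.51 CPM to 22.6 and 23.5 CPM, 2.44 ± 0.12). The 3 largest falls were Nrarp (from 64.5 and 58 CPM to 12.5 and 15 CPM, -2.16 ± 0.095) and Hes1 (from 24.8 and 27.8 CPM to 8.36 and 8.94 CPM, -1.60 ± 0.12), both known as Notch target genes, and the ligand Dll4 (from 45.2 and 44.1 CPM to 11.3 and 9.04 CPM, -2.13 ± 0.11). The adjusted p of these 6 genes was at most 2.91e-09. Another ligand, Dll1, had 16.2 and 16 CPM in vehicle and 17.8 and 17 CPM after IFN-gamma (adjusted p = 0.345).

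Of 31 receptor tyrosine kinases and ERBB ligands 17 rose and 6 fell (median 0.33, or 0.13 after correction for length and GC content). The collagen receptor Ddr1 rose from 54.7 and 53.2 CPM to 209 and 220.03 CPM (1.99 ± 0.053), Erbb3 from 32.4 and 34.2 CPM to 97.1 and 97.6 CPM (1.55 ± 0.065) and the insulin receptor Insr from 60.8 and 62.5 CPM to 173 and 174 CPM (1.49 ± 0.056). The EGFR ligand Areg fell from 36.8 and 31.3 CPM to 7.11 and 9.25 CPM (-2.06 ± 0.12), Epha4 from 17.5 and 16.7 CPM to 4.21 and 4.52 CPM (-1.97 ± 0.18) and Fgfr3 from 5.32 and 5.03 CPM to 2.18 and 3.19 CPM (-0.95 ± 0.22). Met, the HGF receptor, had 202 and 196 CPM in vehicle and 202 and 210.4 CPM after IFN-gamma (adjusted p = 0.324). Of 30 Wnt pathway genes 19 rose and 2 fell (median 0.48, or 0.34 after the same correction, with 5 falls), led by the secreted antagonists Sfrp1 (from 11.7 and 10.1 CPM to 47.3 and 42 CPM, 2.04 ± 0.094) and Notum (from 4.03 and 3.04 CPM to 11.8 and 12.1 CPM, 1.76 ± 0.20). Tcf7l1 rose by 1.09 on the log2 scale, and the receptor Fzd6 fell from 133 and 127 CPM to 93.5 and 92.1 CPM (-0.48 ± 0.049). The ligand Wnt5b fell from 1.08 and 0.786 CPM to 0 and 0.103 CPM, with a level in vehicle over that after IFN-gamma at a ratio of 18.8 (95% counting interval 4.84 to 161). It lies below the level of 1 CPM required for naming and is given because it was the other of the 2 falls.

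Of 37 TGF-beta and BMP pathway genes 25 rose and 4 fell (median 0.42), 6 and 1 of them by 2-fold or more. Fst, the activin antagonist follistatin, rose from 0.826 and 1.05 CPM to 14 and 15.5 CPM (3.96 ± 0.18), Tgfbi from 1.24 and 0.629 CPM to 5.51 and 4.37 CPM (2.39 ± 0.32) and the coreceptor Tgfbr3 from 7.9 and 7.91 CPM to 35.4 and 36.1 CPM (2.17 ± 0.098). The inhibitor Smad7 fell from 36.2 and 36.3 CPM to 25.4 and 24.3 CPM (-0.55 ± 0.070). It was not the largest fall, since the lowest value of the list was -1.75 on the log2 scale. Of 30 YAP and TEAD genes 18 rose and 7 fell (median 0.30, or 0.13 after correction for length and GC content). The kinase Nuak2 rose from 14.7 and 15.9 CPM to 71.4 and 65.5 CPM (2.16 ± 0.081), Tgfb2 from 2.58 and 1.47 CPM to 6.24 and 6.68 CPM (1.67 ± 0.22) and tissue factor F3 from 10.5 and 11.3 CPM to 29.97 and 30.7 CPM (1.48 ± 0.098), while the target Ccn2, also known as CTGF, fell from 74.6 and 74.5 CPM to 19.7 and 23 CPM (-1.81 ± 0.062). Of the core kinase genes, Stk4 fell (-0.61 ± 0.056), and Lats1 had 126 and 119 CPM in vehicle and 127 and 132 CPM after IFN-gamma and was not called (adjusted p = 0.208).

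Genes of adhesion and matrix were higher as a rule. Of 39 integrin and matrix genes 33 rose, 13 by 2-fold or more, and 2 fell. The median was 0.66, or 0.39 after correction for length and GC content, and the list's median transcript length of 5614 bases lies in the longest class, whose own median was 0.28. Lama3, the alpha chain of laminin-332, rose from 87.5 and 86.8 CPM to 331 and 336 CPM (1.94 ± 0.051), and its beta chain Lamb3, picked after its values were seen, rose from 155 and 157 CPM to 418 and 404 CPM (1.40 ± 0.044). The integrin subunits Itgb3 (from 1.14 and 1.62 CPM to 7.01 and 4.42 CPM, 2.05 ± 0.24) and Itgb7 (from 3.61 and 2.46 CPM to 10.8 and 11.5 CPM, 1.87 ± 0.18) rose from low levels. Col12a1 fell from 4.23 and 5.61 CPM to 1.5 and 1.8 CPM (-1.58 ± 0.21), and the abundant Itgb1 fell slightly, from 1371 and 1316 CPM to 1230.0 and 1216 CPM (-0.14 ± 0.038, adjusted p = 0.00371), a call that the correction for length and GC content and the absence of 1 vehicle library removed. Itga6 had 266 and 267 CPM in vehicle and 291 and 283 CPM after IFN-gamma (adjusted p = 0.052).

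Of 38 epithelial junction and keratin genes 28 rose and 6 fell (median 0.49). The tight junction gene Cldn1 rose from 0.155 and 0.0524 CPM to 3.29 and 4.32 CPM (5.11 ± 0.48), the stress keratin Krt16 from 0.568 and 0.367 CPM to 4.45 and 3.49 CPM (3.07 ± 0.29) and the junction scaffold Tjp3 from 8.31 and 9.33 CPM to 33.4 and 36.5 CPM (1.99 ± 0.11). The keratin gene Krt80 fell from 77.2 and 81.3 CPM to 35.5 and 35.9 CPM (-1.15 ± 0.063) and the claudin gene Cldn12 from 120.5 and 120.1 CPM to 71.7 and 72.2 CPM (-0.74 ± 0.045). Of 36 actin, myosin and cytoskeleton regulator genes 24 rose and 8 fell (median 0.39). The exchange factor Arhgef3 rose from 7.69 and 9.01 CPM to 49.7 and 55.6 CPM (2.66 ± 0.087), Cdc42ep2 from 1.7 and 2.99 CPM to 8.99 and 11 CPM (2.09 ± 0.20) and the atypical small GTPase gene Rnd3 from 20.6 and 19.2 CPM to 77.5 and 85.8 CPM (2.04 ± 0.068). The abundant actin binders Pfn1 (from 1025 and 1085 CPM to 639.98 and 609 CPM, -0.76 ± 0.042) and Cfl1 (from 1269 and 1353 CPM to 911 and 845 CPM, -0.58 ± 0.045) fell. Actg1 (2189 and 2169 CPM in vehicle and 2249.7 and 2269.9 CPM after IFN-gamma, adjusted p = 0.21) and Flna (1177 and 1191 CPM in vehicle and 1128 and 1118 CPM after IFN-gamma, adjusted p = 0.0772) were not called.

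Secreted and surface proteins of immunity held the widest range. Of 16 complement genes 10 rose, all by 2-fold or more, and 4 fell, 2 by 2-fold or more (median 4.43, or 3.47 with the 3 genes at 0 in an arm set to their bound, and 4.30 after correction for length and GC content), and 2 fell with a minimum count of 50. Cfb, factor B of the alternative pathway, had no count in vehicle and 6.62 and 6.89 CPM with IFN-gamma, which is at least 43.3-fold higher. The surface regulator Cr1l fell from 40.9 and 39.5 CPM to 19.2 and 21.5 CPM (-0.98 ± 0.077), and C1qbp, a mitochondrial protein despite its name, from 243 and 242 CPM to 163 and 157 CPM (-0.60 ± 0.042). Both falls were under 2-fold. The 2 larger falls are not named here, and the lowest value of the list was -1.63 on the log2 scale. Clu was level at 127 and 128 CPM in vehicle and 127 and 128 CPM after IFN-gamma (adjusted p = 0.954). Among interleukin and haematopoietic cytokine genes 16 of 26 rose and 4 fell (median 0.94, or 1.11 after the same correction). Il18bp, a decoy of IL-18, rose from 1.6 and 1.31 CPM to 36.3 and 37.7 CPM (4.66 ± 0.15), and Il15, a survival factor of NK and memory T cells, from 2.07 and 2.15 CPM to 28.6 and 27 CPM (3.72 ± 0.15). Tslp, an epithelial alarmin, fell from 87.3 and 83.2 CPM to 23.1 and 22 CPM (-1.92 ± 0.080), Il17d from 3.36 and 3.83 CPM to 1.16 and 1.08 CPM (-1.67 ± 0.31) and Tnfsf9 from 16.5 and 14.9 CPM to 9.04 and 9.51 CPM (-0.76 ± 0.15). Kitl (35.5 and 33 CPM in vehicle and 34.3 and 38 CPM after IFN-gamma, adjusted p = 0.44) and Il23a (26.8 and 29.5 CPM in vehicle and 30.1 and 30.7 CPM after IFN-gamma, adjusted p = 0.177) were not called.

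Of 30 cytokine receptor genes 20 rose and 5 fell (median 0.58, or 0.45 after correction for length and GC content), with 3 falls without vehicle replicate 2 or without IFN-gamma replicate 1. Il12rb1, a chain of the IL-12 and IL-23 receptors, rose from 2.63 and 2.2 CPM to 114 and 115 CPM (5.56 ± 0.13), Tnfrsf14 from 0.207 and 0 CPM to 4.16 and 3.8 CPM (5.18 ± 0.54) and the oncostatin M receptor Osmr from 3.98 and 4.45 CPM to 35.1 and 36.6 CPM (3.09 ± 0.11). Tnfrsf12a fell from 492 and 487 CPM to 255 and 237 CPM (-0.99 ± 0.053), Tnfrsf21 from 17.7 and 19.3 CPM to 8.8 and 10.02 CPM (-0.98 ± 0.13) and the IL-1 receptor Il1r1 from 9.71 and 10.1 CPM to 6.38 and 8.63 CPM (-0.40 ± 0.14, adjusted p = 0.0184), whose call was lost without either of 2 libraries. Il20rb, below the level required for naming, had 0.981 and 0.839 CPM in vehicle and no count after IFN-gamma (at least 6.08-fold lower).

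Lipid mediator genes had no common direction, 7 of 14 rising and 5 falling (median 0.11, or -0.11 after correction for length and GC content). The phospholipase Plaat3 rose from 14.4 and 15.6 CPM to 113 and 110.2 CPM (2.90 ± 0.086), Ephx1 from 4.13 and 5.4 CPM to 17.2 and 16.4 CPM (1.82 ± 0.17) and the cyclooxygenase Ptgs1 from 19.4 and 18.3 CPM to 51.7 and 53.6 CPM (1.48 ± 0.092). The prostaglandin E receptors Ptger4 (from 2.74 and 2.46 CPM to 0.628 and 0.976 CPM, -1.70 ± 0.31) and Ptger1 (from 2.32 and 3.83 CPM to 1.02 and 1.39 CPM, -1.35 ± 0.35, adjusted p = 0.0023, lost without 1 vehicle library) fell. Of 18 purine signalling genes 7 rose and 5 fell (median 0.13, or -0.031 after the same correction). P2ry6, a UDP receptor, rose from 0.62 and 0.314 CPM to 6.14 and 4.68 CPM (3.51 ± 0.29) and Enpp2, autotaxin, from 2.01 and 3.09 CPM to 17.4 and 17.1 CPM (2.75 ± 0.18). The equilibrative nucleoside transporters Slc29a2 (from 19.9 and 18.6 CPM to 4.16 and 3.91 CPM, -2.25 ± 0.14) and Slc29a1 (from 73.2 and 76.6 CPM to 36.3 and 35 CPM, -1.07 ± 0.061) fell.

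Of 22 clock genes 17 rose and 3 fell (median 0.83, or 0.62 after correction for length and GC content). Dbp, an output factor of the circadian clock, rose from 1.91 and 1.73 CPM to 23.2 and 21.5 CPM (3.62 ± 0.22) and Per1 from 13 and 12.7 CPM to 62.1 and 64.6 CPM (2.30 ± 0.074). Clock itself fell from 74.2 and 75.8 CPM to 44.8 and 46.4 CPM (-0.72 ± 0.057), as did Ciart (-1.69 ± 0.20). Cry1 had 21.4 and 20.8 CPM in vehicle and 18.6 and 21.7 CPM after IFN-gamma (adjusted p = 0.544). Of 27 redox genes 11 rose and 10 fell (median -0.014, or 0.096 after the same correction). Txnip, an inhibitor of thioredoxin and glucose uptake, rose from 17.6 and 18.7 CPM to 126 and 128 CPM (2.81 ± 0.057), and thioredoxin itself, Txn1, fell from 641 and 676 CPM to 394 and 397 CPM (-0.74 ± 0.049). Nfe2l1, which drives proteasome genes, rose from 208 and 232 CPM to 683 and 691 CPM (1.64 ± 0.050), the glutathione synthesis gene Gclc fell from 34.5 and 41.7 CPM to 14.5 and 15.2 CPM (-1.36 ± 0.093) and Prdx1 from 976 and 937 CPM to 451 and 471 CPM (-1.05 ± 0.051). The ferroptosis suppressor Aifm2 rose from 15.6 and 15.4 CPM to 40.2 and 39.9 CPM (1.37 ± 0.082), whereas Gpx4 had 524 and 504 CPM in vehicle and 551 and 523 CPM after IFN-gamma and was not called (adjusted p = 0.281).

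RefSeq promoter windows of the tested genes were searched for the 3 motifs named above, on both strands. A window was available for 10054 tested genes, with 12871 promoters in all. A GAS match, TTCNNNGAA, was present in 6.89% of these promoters, an ISRE core in 3.11% and an E-box in 9.83%, and over all 32851 promoters of the table the shares were 8.3%, 3.44% and 7.15%. Among 264 promoters of genes raised 8-fold or more, 14.8% held a GAS match, 22% an ISRE core and 5.3% an E-box. Without the canonical genes, 166 promoters of that class held a GAS match in 12% and an ISRE core in 12%. In genes raised 2 to 8-fold the shares were 9.05% and 4.46%. Of 1032 promoters of genes lowered 2 to 4-fold, 14% held an E-box, 8.24% a GAS match and 2.91% an ISRE core, and of 223 promoters of genes lowered 4-fold or more 13%, 7.62% and 0.897%. Of 45 promoters of RNA polymerase I and nucleolar genes, 15.6% held an E-box, and of 47 of tRNA modification genes 19.1%. A GAS match and an ISRE core can share bases, a gene can have several overlapping windows, and no test was made on these shares. A match is a description of letters and not a bound site.

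**Figure D4:**
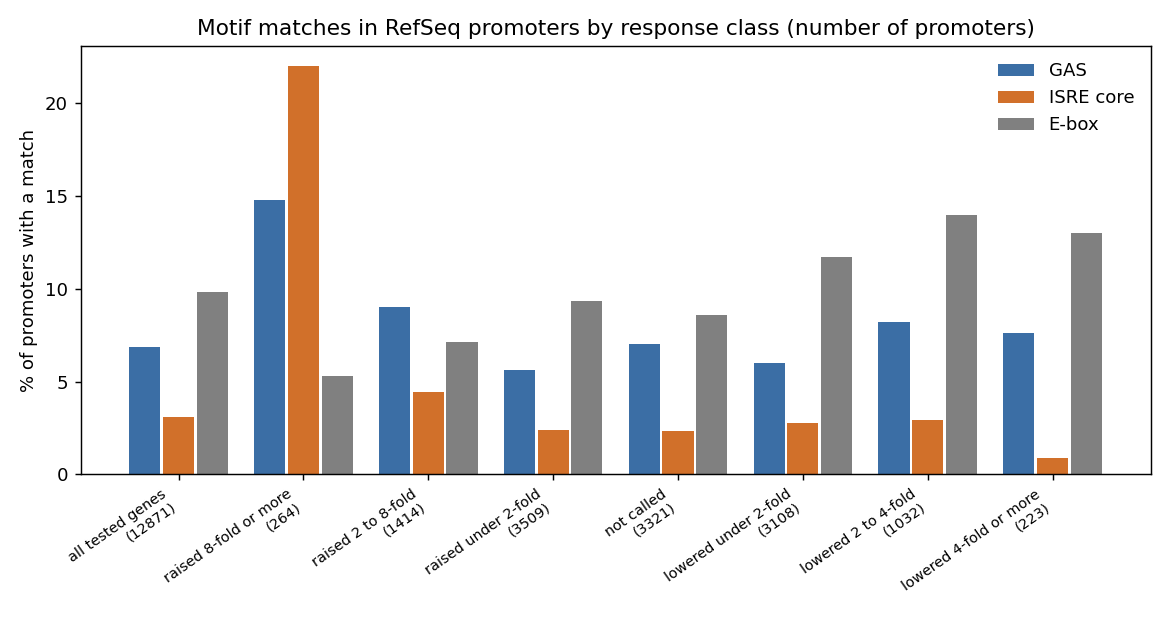
Bars give the percentage of RefSeq promoter windows with at least 1 match to GAS (blue), the ISRE core (orange) or the E-box (grey), for all tested genes and for classes of the response, with the number of promoters in parentheses. The ISRE core reaches 22% in genes raised 8-fold or more, and the E-box 14% and 13% in the 2 classes lowered by 2-fold or more.

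The control response was then set against that of the lines with a guide against Cebpd, treated the same way, by the difference between the control log2 fold change and the mean of the 2 guides. Those lines also shared the spread estimate of every test above. RNA of Cebpd was not lost in them: with vehicle and IFN-gamma it had a mean of 13.5 ± 0.17 and 45.8 ± 0.21 CPM with sgRNA1 and 9.54 ± 1.46 and 29.8 ± 0.59 CPM with sgRNA2 (SD, n = 2), beside 8.11 ± 1.39 and 51.3 ± 3.07 CPM in control. An RNA level does not check the edit of a coding sequence, so the labels of the guides were not checked here. The difference was called for 8688 genes (63.9%), 4536 higher in control (33.4%) and 4152 lower (30.5%), and by at least 2-fold for 1648 genes higher (12.1%) and 1274 lower (9.37%). Against sgRNA1 alone 7492 genes differed and against sgRNA2 alone 8860. Of the 1681 genes raised by 2-fold or more in control, 1399 had a larger rise there than with the guides and 24 a smaller one. Of the 1465 lowered genes, 1131 had a larger fall in control and 8 a smaller one. Selecting genes on their control change favours such a result in part, since the same control libraries enter both values. The levels before treatment also differed between the lines, and whether the guides or the lines' histories made the difference cannot be told apart.

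The 5 genes named for a larger rise in control had no read in control vehicle, so their control rise is known only as a lower bound and their order rests on the prior count of the fit. C1s2 was at least 52-fold higher after IFN-gamma in control, and rose by 3.48 on the log2 scale with sgRNA1 and 3.57 with sgRNA2. Cfb was at least 43.3-fold higher in control and rose by 3.50 and 3.71, and the class II chain H2-Ab1 was at least 62-fold higher and rose by 4.36 and 2.83. The GTPase Tgtp2, with a near copy, was at least 702-fold higher in control and rose by 8.40 and 6.98. Gm28035, a readthrough model that overlaps Lrrc8a and Phyhd1, was at least 11.9-fold higher in control, and its changes of -0.85 and -0.77 with the guides were not called. Among the falls, Kbtbd8 changed by -4.83 in control, -0.42 with sgRNA1 and 1.30 with sgRNA2 (difference -5.27 ± 0.37, adjusted p = 6.40e-10), and Prl3d2, one of several placental prolactin copies, by -3.06, 0.31 and 2.72 (-4.58 ± 0.51). Serpinb2, PAI-2, had 0.62 and 0.314 CPM in vehicle and 0.0483 and 0.0514 CPM after IFN-gamma in control, and a difference of -4.04 ± 0.81. A630072M18Rik, opposite Rsbn1l, had no count after IFN-gamma (at least 6.95-fold lower). The pseudogene Gm10163 had 87.7 and 0 CPM in the 2 control vehicle libraries, so its difference rests on 1 library.

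Several lowered programmes differed between control and the guides. RNA polymerase I and nucleolar genes had a median of -1.55 in control, -0.17 with sgRNA1 and 0.51 with sgRNA2, and 36 of 41 had a called difference toward a lower value in control, beside 30.5% of all genes. For tRNA modification genes the medians were -0.85, -0.15 and 0.22, and 34 of 46 were lower in control. For mitochondrial ribosomal protein genes they were -0.71, -0.41 and 0.044, with 58 of 80, and for nucleotide synthesis -0.69, -0.26 and 0.33, with 20 of 31. Nop56 fell in control by 2.53 on the log2 scale and changed by -0.64 with sgRNA1 and 0.49 with sgRNA2 (difference -2.46 ± 0.054, adjusted p = 5.21e-16). Rrp12 changed by -2.52, 0.17 and 1.70 (-3.45 ± 0.094), Srm by -2.15, -0.41 and 1.17 (-2.53 ± 0.065), and Ran by -1.41, -0.96 and 0.20 (-1.03 ± 0.054). Myc fell in control and rose with both guides, with -1.03, 0.38 and 0.76 (-1.60 ± 0.056, adjusted p = 8.86e-14). Mat2a fell in all 3 lines, with log2 fold changes of -3.75, -2.02 and -1.12 (-2.19 ± 0.065), and so did Mir17hg, with -3.66, -2.96 and -1.59 (-1.38 ± 0.22).

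**Figure D5:**
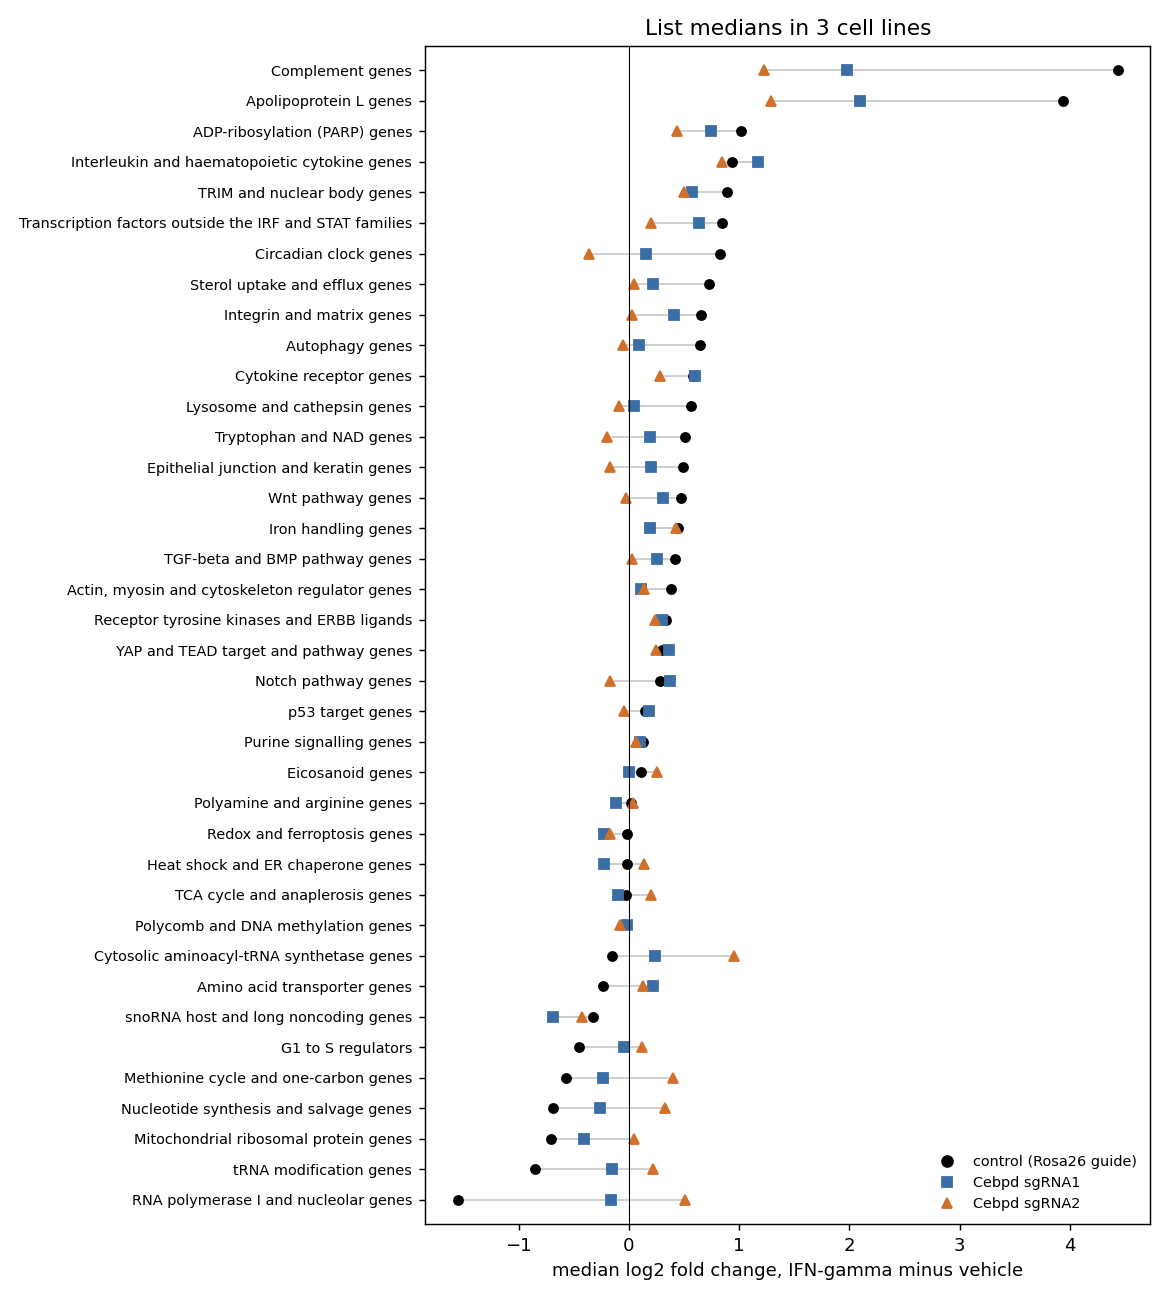
The median log2 fold change, IFN-gamma minus vehicle, of each gene list in control cells (black circles), with sgRNA1 (blue squares) and with sgRNA2 (orange triangles), in the order of the control medians. For RNA polymerase I and nucleolar genes the medians run from -1.55 in control to 0.51 with sgRNA2, while for receptor tyrosine kinases all 3 lie between 0.24 and 0.33.

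Raised programmes differed as well, with exceptions. Complement genes had medians of 4.43 in control, 1.98 with sgRNA1 and 1.22 with sgRNA2. With the 3 genes at 0 in a control arm set to their bound, the control median was 3.47. Of the 16 genes, 12 were higher in control, beside 33.4% of all genes. Lysosome genes had 0.57, 0.042 and -0.087, with 25 of 30 higher in control, and integrin and matrix genes 0.66, 0.41 and 0.027, with 29 of 39. Interleukin genes had 0.94, 1.17 and 0.85, with 7 of 26 higher and 10 lower in control. Txnip rose by 2.81 in control and changed by 0.56 with sgRNA1 and -2.66 with sgRNA2 (difference 3.85 ± 0.067, adjusted p = 4.22e-17), and Dbp by 3.62, -0.78 and -2.08 (5.04 ± 0.29). Fst is an exception, rising by 3.96 in control, 4.90 with sgRNA1 and 5.05 with sgRNA2 (-1.01 ± 0.29, adjusted p = 0.00586). Slc6a9 (1.53, 1.98 and 1.32) and Itgb7 (1.87, 1.96 and 1.89) had differences that were not called, with adjusted p of 0.384 and 0.845 and sizes of -0.12 ± 0.12 and -0.057 ± 0.22.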

How the data were processed

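RNA of 12 libraries of mouse 4T1 cells, 6 groups of 2, was measured with a TruSeq RNA kit, which does not mark strand. The authors deposited 1 table of raw read counts per gene symbol, named as raw in its label. Per the submitters' processing notes, STAR 2.4.0, HTSeq, DESeq2 1.10 and the build mm10 were used, with roles and the annotation not given in the sources used here. Groups came from the labels.

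Counts were fitted here over all 12 libraries in 6 groups with edgeR 4.0.16 (R 4.3.3, limma 3.58.1): TMM scaling, filterByExpr (minimum count 10, minimum total 15), glmQLFit, glmQLFTest and, against a 2-fold change, glmTreat. P-values were adjusted by Benjamini-Hochberg over 13601 genes, with calls below 0.05. The tested genes held 99.965% of counts with 6 residual degrees of freedom and a biological coefficient of variation of 4.67% in common. Errors beside log2 fold changes are SE, the size of the change over the square root of F. The other 2682 genes were not tested. The fit was tested on simulated counts with 200 changed genes. The difference between lines was a contrast of the same fit. The libraries of a control arm differed by more than sampling noise (chi-square per degree of freedom 3.46 in vehicle and 2.96 after IFN-gamma) and were kept as 2.

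A gene at 0 in an arm was compared with a floor of 3 counts per library, a lower bound, and a gene with 1 to 3 counts in an arm by a ratio with a 95% counting interval, which covers counting error only. Transcript lengths and gene coordinates came from GENCODE release M21 and promoters from RefSeq, both GRCm38. By symbol 15941 genes matched, 223 more through a synonym, and 119 did not.

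The gene lists and members were chosen with earlier results of these data known. Named genes were the 12 largest called rises and falls off the canonical list with at least 1 CPM and separate arms, the 6 largest rises and falls in CPM without mitochondrially encoded genes, up to 3 called rises, 3 called falls and 2 genes not called per list, the 5 largest differences between control and guides in each direction with at least 1 CPM over the 12 libraries and the same sign against each guide, and 9 genes of the pathway. Others are said to be chosen after their values were seen, and some genes that the rule names are not reported here. Alternatives were other scalings (DESeq2 size factors, upper quartile), no filter, a minimum count of 50, the 4 control libraries alone, DESeq2 1.42.0, a replicate block, each control library left out and an offset for length and GC content.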

Additional observations from a re-analysis of the deposited data

Results flagged for a closer look

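The IFN-gamma response differed between control cells and the mean of the Cebpd guides in 8688 of 13601 genes tested (edgeR's quasi-likelihood test of the difference, Benjamini-Hochberg adjusted p below 0.05). Of these, 1019 were called in opposite directions in control and in both guides, 492 of them lower and 527 higher in control.

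Myc was 1 of the genes with opposite directions: it fell in control (-1.03 ± 0.045) and rose with sgRNA1 (0.38) and sgRNA2 (0.76), a difference of -1.60 ± 0.056 (adjusted p = 8.86e-14). Both control libraries with IFN-gamma lay below both with vehicle. With 2 libraries in a group, no library was tested for standing apart from its group.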

How the results depend on the processing

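Across scalings, filters, the control libraries alone, DESeq2 and the offset for length and GC content (chosen after seeing the data), genes called in control ranged from 8918 to 9681 (main 9581), those at 2-fold or more from 2543 to 3323 (3146), those beyond 2-fold by glmTreat from 1693 to 1918 (1883) and those differing from the guides from 7975 to 8797 (8688). With 1 control library left out the ranges were 8753 to 8844, 3007 to 3071, 1617 to 1682 and 8031 to 8107, where the lone library is assumed to vary like the other groups. A replicate block gave 9539, 3123, 1863 and 8644 genes. Shared numbers did not pair the control libraries: the correlation of their deviations was -0.0678. The share of calls that were higher lay between 47.9% (upper quartile scaling, which moved the median of all genes to -0.048) and 52.7% (DESeq2), beside 51.6%.

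Of 5538 values of single genes under these alternatives, 5413 kept direction and side of the threshold, 50 lost a call, 68 gained one and 7 reversed. With the offset for length and GC content the log2 fold changes became 0.22 for Cmpk1, 0.087 for Fth1, 0.18 for Hnrnph3, -0.11 for Irs2, -0.12 for Met and -0.25 for Slco2a1. Without vehicle replicate 1 the difference of Gm10163 from the guides was 2.13, and -11.63 without vehicle replicate 2, against -10.63 with both. Taf1b and Nadsyn1 each lost their call under 8 alternatives. Il1r1 lost its call without vehicle replicate 2 (adjusted p = 0.0792) and without IFN-gamma replicate 1 (0.283), Ptger1 without vehicle replicate 2 (0.0565), and Itgb1 without vehicle replicate 1 (0.0555). List counts and medians moved in 32 of 1656 cases and stayed within 1.5 times (counts) or 0.25 (medians) of the main value in 1624. Apolipoprotein L genes had a median of 4.35 and 3.64 with 1 vehicle library left out, against 3.93. The precision for genes near 0 in vehicle is set by a floor of 0.156 CPM. The cause of these changes was not tested.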

Other observations

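Genes of RNA handling that no list above holds were lower as well. These lists were assembled after their values were seen and get no test. Their counts are to be read beside all genes tested, of which 34.1% fell, 10.8% by 2-fold or more. Of 10 SR splicing factors 9 fell and 1 rose, 6 of the falls by 2-fold or more, and the median was -1.48 on the log2 scale (-1.26 after correction for length and GC content). Srsf6 fell from 370.01 and 361 CPM to 78.5 and 75.2 CPM (-2.25 ± 0.050), Srsf1 from 439 and 404 CPM to 98.1 and 96.3 CPM (-2.12 ± 0.049) and Srsf2 from 429 and 422 CPM to 107 and 105 CPM (-2.01 ± 0.046), while Srsf4 went from 81.3 and 84.2 CPM to 95.1 and 91.9 CPM (0.18 ± 0.063), a call that 4 alternatives removed. Of 20 hnRNP genes 14 fell and 4 rose, with a median of -0.47. The 9 RNA exosome subunits fell (median -0.93, or -0.63 after the same correction), although the call of Exosc4 was lost under 5 alternatives, that correction among them (-0.19, adjusted p = 0.0832). The largest fall was that of Exosc2, from 42.6 and 49 CPM to 14.3 and 13 CPM (-1.75 ± 0.097). Of 10 RNA polymerase III subunits 8 fell, 5 by 2-fold or more (median -1.03). The call of Polr3a was lost by DESeq2 (-0.21) and with no filter on low counts (-0.20). Polr3g, the subunit typical of dividing cells, fell from 27.2 and 26.6 CPM to 9.09 and 10.4 CPM (-1.46 ± 0.11), and its paralog Polr3gl rose from 3.56 and 3.98 CPM to 10.4 and 9.15 CPM (1.37 ± 0.15). Of 24 TIMM and TOMM genes of mitochondrial protein import 21 fell and none rose (median -0.88, and 34.1% of all genes tested fell). The calls of Timm21 and Tomm7 were lost after correction for length and GC content.

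The lists that follow were also chosen after their values were seen, which by itself favours lopsided counts. Of all genes tested, 36.4% rose, 12.4% by 2-fold or more. Of 14 tested genes known to rise when nutrients or insulin signalling are low, 13 rose, 9 by 2-fold or more, and none fell. Their median was 1.92 in control, 0.63 with sgRNA1 and -0.51 with sgRNA2. Pik3ip1, an inhibitor of PI3 kinase, rose from 2.01 and 2.88 CPM to 27.8 and 26.4 CPM (3.47 ± 0.15), Sesn3, a sestrin, from 61.7 and 53.6 CPM to 331 and 330.00 CPM (2.52 ± 0.056), and Klhl24 from 16.8 and 17.2 CPM to 95 and 95.2 CPM (2.48 ± 0.060). Sesn2 had 5.83 and 5.4 CPM in vehicle and 6.14 and 7.04 CPM after IFN-gamma (adjusted p = 0.164). Among inflammatory caspases and their regulators 6 of 9 tested rose and none fell (median 1.96, or 3.09 with a minimum count of 50), with Casp12 from 4.23 and 3.62 CPM to 68.5 and 69.5 CPM (4.13 ± 0.084) and Casp1 from 1.39 and 1.26 CPM to 20.5 and 21.2 CPM (3.97 ± 0.17). In the Ly6 family, whose members share sequence, 5 of 6 rose (median 4.56, or 4.68 after correction for length and GC content, 4.11 without vehicle replicate 1 and 5.85 without vehicle replicate 2), with Ly6e from 5.89 and 5.29 CPM to 99.1 and 98.8 CPM (4.14 ± 0.077).

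Single genes chosen after their values were seen include the transglutaminase Tgm2 (from 14.1 and 12.6 CPM to 267 and 256 CPM, 4.29 ± 0.067), xanthine dehydrogenase Xdh (from 17.5 and 17.2 CPM to 320.4 and 316 CPM, 4.19 ± 0.053), the kinase Pim1 (from 13.8 and 17.9 CPM to 295 and 296 CPM, 4.22 ± 0.074) and the mucin Muc1 (from 0.207 and 0.157 CPM to 5.95 and 6.42 CPM, 5.04 ± 0.32), all of which rose. Egr1, an immediate early gene, fell from 10.8 and 10.8 CPM to 1.45 and 1.23 CPM (-3.01 ± 0.20) and rose with sgRNA1 by 1.002 on the log2 scale, while its change of -0.078 with sgRNA2 was not called (adjusted p = 0.849). Ndufaf4, an assembly factor of respiratory complex I, fell from 41 and 36.9 CPM to 4.16 and 4.68 CPM (-3.14 ± 0.12) and the nucleoside diphosphate kinase Nme1 from 256 and 246 CPM to 49.6 and 57.4 CPM (-2.23 ± 0.065). Gt(ROSA)26Sor, the noncoding transcript of the locus that the control guide targets, fell from 15.6 and 16.1 CPM to 4.16 and 2.98 CPM (-2.15 ± 0.16) and changed by -1.14 with sgRNA1 and -1.18 with sgRNA2. Mitochondrially encoded mRNAs did not move as one: mt-Co1 rose from 2193 and 1970.1 CPM to 6167 and 6602 CPM (1.62 ± 0.049) and mt-Nd3 fell from 148 and 185 CPM to 34.9 and 54.9 CPM (-1.89 ± 0.25).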
